A study of Mus musculus with 4 samples.

Results

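Binding sites of CTCF were compared between 2 HoxB mutants of mouse gastruloids, DelCBS7-10 and InsCBS5-10, which differ by the removal of CTCF binding sites 7 to 10. After peaks of equal interval were merged and chromosomes 1 to 19 kept, DelCBS7-10 had 35805 peaks and InsCBS5-10 had 33698. Joined, they made 41468 sites of the 55401 covered by the 4 lists of the series used here. Gastruloids are clumps of mouse embryonic stem cells that elongate along a body axis in a dish, and pools of them were taken at 96 h. The sites were mapped by ChIPmentation, in which the Tn5 transposase tags chromatin held on antibody beads. By their genotype labels, both mutants have HoxB Del on 1 chromosome 11, and on the other Del(i9-13) together with Ins(CBS5-10). DelCBS7-10 further carries Del(CBS7-10), so HoxB is on 1 copy in either mutant. A RAD21 list of InsCBS5-10 and a CTCF list of wild-type gastruloids, with no labelled edit, served as further readouts. Peak strength is given as the authors' fold enrichment over background and as its percentile within the own list (100 is the strongest peak), since fold values of separately called lists are not on 1 scale; −log10 q is the authors' measure of how surely a peak was called. A peak counts as shared where it overlaps a peak of the other list by 1 bp. Each side is 1 library, the stem cell clones are not described in the labels, and a difference between lists has no replicate check. A library or a clone cannot be told apart from the genotype.

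CTCF is a zinc-finger protein that binds a long, directional DNA motif and halts the cohesin ring as it extrudes chromatin loops. Where cohesin stops, a border forms that limits contact between enhancers and promoters on either side. In Hox clusters CTCF sites separate genes that are switched on at different times along the growing body axis, and Hoxb13, the most posterior HoxB gene, lies apart from the rest of its cluster. RAD21 is the cohesin subunit measured here.

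The core of the CTCF motif was looked for under promoter peaks that were found in 1 list or whose ranks were far apart, and 8 are shown since they give the letters at the sites that differed. The letters searched on either strand were CC, any 3 bases, AG, any 2 bases and GGC, and no other motif was searched. Each stretch is from RefSeq promoter windows of GRCm38.p6 (250 bases before to 50 after a start site), reads 5′ to 3′ along the gene, and has the match in capitals. The first 2 lie under peaks of DelCBS7-10 alone, the next 3 under shared peaks that ranked over 50 percentile points higher in DelCBS7-10, the sixth under a peak of InsCBS5-10 alone, and the last 2 under shared peaks over 50 points lower in DelCBS7-10.
1700028I16Rik, chr10:82811961-82812020, plus strand: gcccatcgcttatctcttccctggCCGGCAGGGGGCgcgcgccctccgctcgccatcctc
Tomm5, chr4:45108187-45108246, minus strand: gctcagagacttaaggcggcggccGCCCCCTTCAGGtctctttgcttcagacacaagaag
Pik3r5, chr11:68432013-68432072, plus strand: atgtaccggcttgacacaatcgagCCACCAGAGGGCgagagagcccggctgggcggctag
Ccdc122, chr14:77036663-77036722, plus strand: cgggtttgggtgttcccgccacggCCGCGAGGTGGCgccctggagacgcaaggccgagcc
Fbxo34, chr14:47472454-47472513, plus strand: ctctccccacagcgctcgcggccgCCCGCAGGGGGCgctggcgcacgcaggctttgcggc
E130309D02Rik, chr5:143315373-143315432, minus strand: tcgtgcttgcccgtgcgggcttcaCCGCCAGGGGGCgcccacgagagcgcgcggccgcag
Scn2a, chr2:65668562-65668621, plus strand: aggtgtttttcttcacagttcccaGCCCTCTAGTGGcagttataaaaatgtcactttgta
Pold1, chr7:44548978-44549037, minus strand: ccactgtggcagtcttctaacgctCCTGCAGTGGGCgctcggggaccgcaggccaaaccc

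Only matches within 100 bp of a summit were taken. The centre of the match was 8 bp from the summit at 1700028I16Rik, 13 bp at Tomm5, a mitochondrial import subunit, and 1 bp at Pik3r5 on chromosome 11 before the edit, a PI3-kinase regulatory subunit. It was 15 bp away at Ccdc122, 40 bp both at Fbxo34 and at E130309D02Rik, 30 bp at Scn2a, a neuronal sodium channel, and 18 bp at Pold1, a DNA polymerase subunit. Of all 30649 promoter windows, 8.73% held the motif, and 46.8% (95% interval 43.4 to 50.2) of the 849 windows with the DelCBS7-10 summit of a shared peak did. The share was 24.7% (18.6 to 31.7) of 182 windows with a summit found in DelCBS7-10 alone and 40.0% (28.0 to 52.9) of 65 windows with a summit found in InsCBS5-10 alone. These windows were not matched for peak strength. Over the whole lists, the median percentile was 17.5 at DelCBS7-10-only and 13.7 at InsCBS5-10-only peaks, against 60.2 at shared DelCBS7-10 peaks. Windows under DelCBS7-10-only summits had a median GC content of 60.7%, and those under InsCBS5-10-only summits 56.3%. A match is a description of the letters and was not tested as a site.

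At HoxB, each list had 10 peaks in the interval from the inserted sites to beyond Hoxb1 on the edited chromosome 11, and 6 of the 10 in each had no counterpart in the other. Of all DelCBS7-10 peaks, 22.2% had no InsCBS5-10 peak, and of all InsCBS5-10 peaks, 17.3% had no DelCBS7-10 peak. The HoxB share of 60.0% (26.2 to 87.8) in either list stood above these values. Of the 6 InsCBS5-10-only peaks, 3 lay at the sites taken as inserted, where the DelCBS7-10 label gives a removal. That part of the InsCBS5-10 share was set by the design. On the rest of chromosome 11 the share was 21.2% (19.4 to 23.1) of 1880 DelCBS7-10 peaks and 17.1% (15.4 to 18.9) of 1783 InsCBS5-10 peaks. Among chromosome 11 peaks within the percentile range that the HoxB peaks span, it was 27.5% (24.7 to 30.3) in DelCBS7-10 and 13.9% (12.03 to 15.8) in InsCBS5-10. The 27.5% lies within the 26.2 to 87.8 given for HoxB. A −log10 q of at least 5 in both lists left 4 HoxB peaks in DelCBS7-10, 3 of them with no counterpart. It left 8 in InsCBS5-10, 7 of them with no counterpart. The 7 include the peaks at 96201619 and 96230132, whose DelCBS7-10 partners (−log10 q 3.58 and 4.47) fell below the limit. These counts thus rest partly on the cutoff. At this limit, 84.0% of all DelCBS7-10 and 87.5% of all InsCBS5-10 peaks were shared.

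The cluster of peaks between Hoxb13 and Hoxb9 was taken as the inserted sites, which the files do not mark. DelCBS7-10 had 1 peak there, at chr11:96201498-96202052 (fold enrichment 4.19, percentile 27.8), while InsCBS5-10 had 4. Their summits spanned 2125 bp, with gaps of 488, 615 and 1022 bp. The InsCBS5-10 peak at 96199499 had a percentile of 30.2, that at 96199991 of 40.5 and that at 96200547 of 44.0. None of these 3 had a DelCBS7-10 peak, the direction its label gives. The remaining InsCBS5-10 peak, at 96201619 (fold enrichment 4.71, percentile 35.2), was the shared site, with summits 49 bp apart. Which peak is which numbered site is not marked either.

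Within the cluster, from Hoxb9 on, each list had peaks that the other lacked. The 2 further InsCBS5-10-only peaks with RAD21 lay between Hoxb9 and Hoxb8 (96214307, percentile 24.8) and between Hoxb6 and Hoxb5 (96238621, percentile 63.8), where the wild-type peaks had percentiles of 95.3 and 96.39. The sixth, over Hoxb2 (96288522, percentile 42.9), had neither RAD21 nor a wild-type peak. Wild-type ranks here are not on equal terms with those of InsCBS5-10, which has HoxB on 1 copy. The median fold enrichment in wild type was 6.77 on chromosome 11 and 5.53 on other autosomes, against 5.59 and 5.57 in InsCBS5-10. The DelCBS7-10-only peaks lay over Hoxb9 (96207494, percentile 59.1), at 2 places over Hoxb8 (96219718 and 96220592, percentiles 12.9 and 24.9), over Hoxb3 and Hoxb4 (96254798, 23.7), over Hoxb3 (96267593, 42.7) and beyond Hoxb1 (96343215, 58.1). Only the last was also a wild-type peak, and only it had RAD21 in InsCBS5-10.

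In counts, 1 of 6 DelCBS7-10-only HoxB peaks and 5 of 6 InsCBS5-10-only ones were found in wild type, 3 of these 5 at the inserted sites, where wild-type reads had also been placed on the edited sequence. RAD21 of InsCBS5-10 overlapped 1 of 6 DelCBS7-10-only HoxB peaks and 4 of 6 InsCBS5-10-only ones. Over chromosomes 1 to 19, wild type had a peak at 48.2% (47.1 to 49.3) of all 7963 DelCBS7-10-only peaks and at 44.4% (43.2 to 45.7) of all 5825 InsCBS5-10-only peaks. RAD21 lay at 11.2% (10.5 to 11.9) of these DelCBS7-10-only peaks and at 15.4% (14.5 to 16.4) of these InsCBS5-10-only peaks. The sets were not matched for strength. The median percentile of DelCBS7-10-only peaks was 33.8 at HoxB and 17.5 over chromosomes 1 to 19. That of InsCBS5-10-only peaks was 41.7 and 13.7. RAD21 came from the InsCBS5-10 line, so it is not an even-handed readout, and RAD21 in DelCBS7-10 was not analysed here. The HoxB peaks of DelCBS7-10 alone had a median width of 361 bp, and those of InsCBS5-10 alone 230 bp.

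The 4 shared HoxB sites also differed in rank. The site over Hoxb6 stood at percentile 29.7 in DelCBS7-10 and 59.6 in InsCBS5-10. Beyond Hoxb1, the site at 96374327 stood at 60.1 in DelCBS7-10 and 82.9 in InsCBS5-10. The site between Hoxb13 and Hoxb9 was 7.34 points lower in DelCBS7-10, and the site over Hoxb3 stood at 27.8 in DelCBS7-10 and 18.5 in InsCBS5-10. No list-only HoxB peak reached the top 30% of its list in either mutant, and 1 shared site did so, in InsCBS5-10 alone. Each of these is a difference between single peaks, and the plot of the HoxB interval shows all of them.

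**Figure D1:**
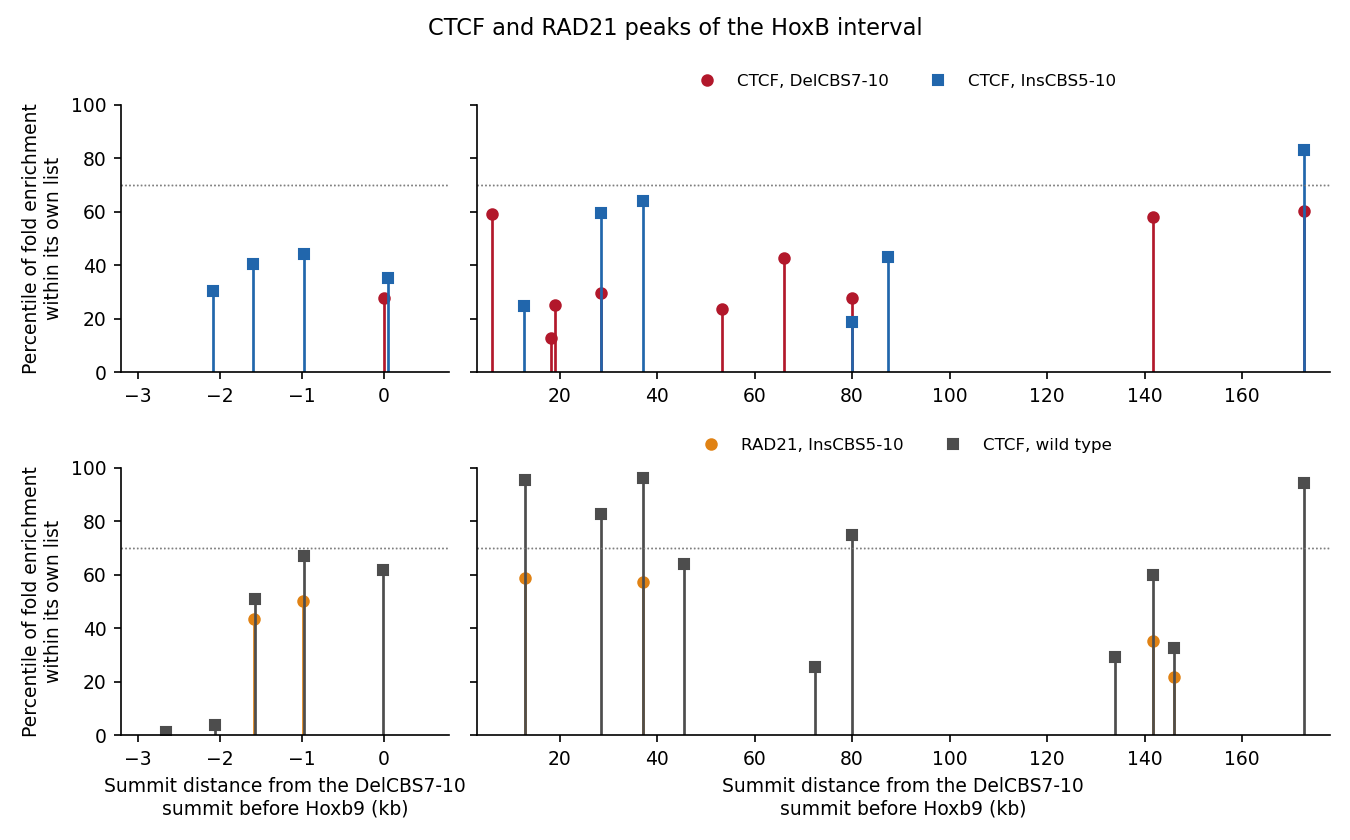
Peaks of the HoxB interval by the distance of their summit from the DelCBS7-10 summit before Hoxb9 (kb on the edited chromosome 11; the left panels enlarge the inserted sites), with height the percentile of fold enrichment within the own list and the dotted line at 70. Upper panels show CTCF in DelCBS7-10 (red circles) and InsCBS5-10 (blue squares), lower panels RAD21 in InsCBS5-10 (orange circles) and CTCF in wild type (grey squares); at the inserted sites DelCBS7-10 has 1 peak and InsCBS5-10 has 4.

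Across the genome, the lists parted mostly at weak peaks. In the weakest decile of each list, 67.2% (65.7 to 68.8) of DelCBS7-10 peaks had no InsCBS5-10 peak and 64.9% (63.2 to 66.5) of InsCBS5-10 peaks had no DelCBS7-10 peak. In the strongest decile the shares were 0.503% (0.298 to 0.793), or 18 peaks, and 0.0890% (0.0184 to 0.260), or 3 peaks. In the third decile the difference between the lists was widest in these terms, at 40.9% of DelCBS7-10 peaks and 26.5% of InsCBS5-10 peaks. HoxB list-only peaks lay at percentiles 12.9 to 59.1 in DelCBS7-10 and 24.8 to 63.8 in InsCBS5-10. Across the deciles that hold these, the list-only share ran from 56.2% down to 9.11% in DelCBS7-10. In InsCBS5-10 it ran from 26.5% down to 2.49%.

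**Figure D2:**
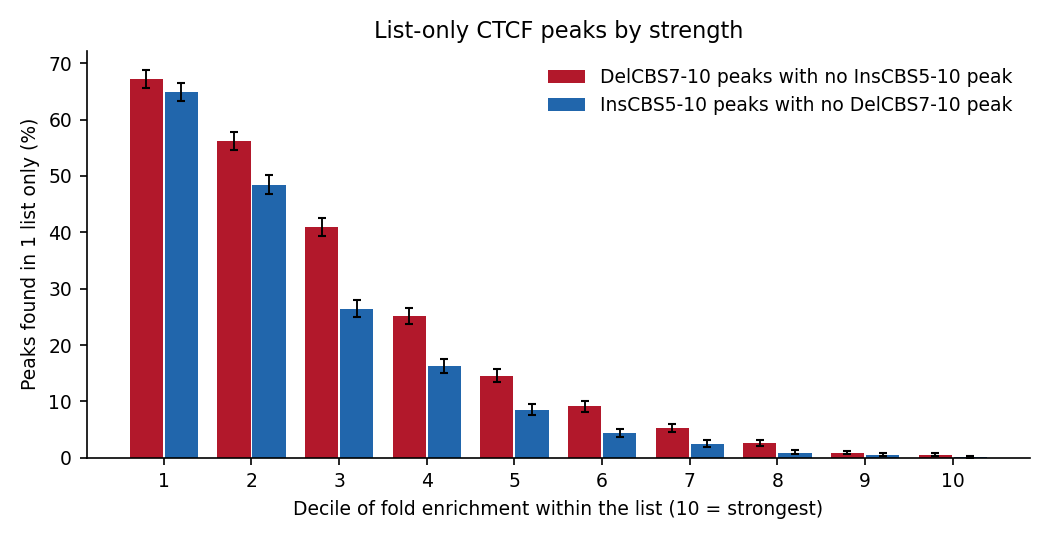
Percentage of peaks found in 1 list only (y axis) by decile of fold enrichment within the list (x axis, 10 is strongest), for DelCBS7-10 (red) and InsCBS5-10 (blue); error bars are exact 95% binomial intervals, which cover counting error only. The share runs down to 0.503% in DelCBS7-10 and 0.0890% in InsCBS5-10 in the strongest decile.

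In the top 30% of each list, 144 of 10745 DelCBS7-10 peaks (1.34%, 1.13 to 1.58) had no InsCBS5-10 peak, and 50 of 10110 InsCBS5-10 peaks (0.495%, 0.367 to 0.652) had no DelCBS7-10 peak. The counts were 77 and 22 where peaks were ranked by −log10 q, and 157 and 89 where a −log10 q of at least 5 was required. The lowest fold enrichment in the top 30% was 6.46 in DelCBS7-10 and 6.87 in InsCBS5-10. Just inside this limit were the DelCBS7-10-only peak by Osr1 (6.46, percentile 70.02) and the InsCBS5-10-only peak by Ttc25 (6.90, 70.5). Just outside were those by Pax2 (6.45, 69.9) in DelCBS7-10 and by Aloxe3 (6.86, 69.9) in InsCBS5-10.

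Strong DelCBS7-10-only peaks had wild-type CTCF and RAD21 less often than strong shared peaks. At InsCBS5-10-only peaks the shares were nearer to those of shared peaks, but they rest on 50 peaks. The intervals cover counting error in single libraries and do not test a difference between the directions. List-only peaks were also weaker within the top 30%. Their median percentile was 77.8 against 85.1 at shared peaks in DelCBS7-10, and 77.9 against 85.0 in InsCBS5-10. Shares at matched strength were not taken. Wild type had a peak at 119 of the 144 DelCBS7-10-only sites (82.6%, 75.4 to 88.4) and at 49 of the 50 InsCBS5-10-only sites (98.0%, 89.4 to 99.9). Among shared top-30% peaks the shares were 99.6% (99.5 to 99.7) in DelCBS7-10 and 99.9% (99.8 to 99.97) in InsCBS5-10. Where wild type had a peak, its median percentile was 54.3 at DelCBS7-10-only sites and 67.0 at InsCBS5-10-only sites, against 84.6 and 85.7 at the shared peaks of these lists. RAD21 of InsCBS5-10 lay at 38 DelCBS7-10-only sites (26.4%, 19.4 to 34.4), where the same line had no CTCF call, and at 33 InsCBS5-10-only sites (66.0%, 51.2 to 78.8). At shared top-30% peaks it lay at 69.4% (68.5 to 70.2) in DelCBS7-10 and 73.2% (72.4 to 74.1) in InsCBS5-10.

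Among DelCBS7-10-only peaks near genes, the highest in rank were by Cdkn2c, an inhibitor of cyclin-dependent kinases (chr4:109657011-109657881, fold enrichment 10.5, percentile 98.0), and Vmn2r102, a vomeronasal receptor (chr17:19658570-19658731, 9.42, 95.8). Next came Nrn1, a neurite outgrowth factor (chr13:36733933-36734999, 9.41, 95.8), Gulp1, an adaptor for engulfment of dying cells (chr1:44551468-44551810, 8.87, 93.5), and Lhx5, a LIM-domain transcription factor needed in forebrain (chr5:120430926-120431875, 8.38, 90.7). They split by width and by wild type. The peaks by Cdkn2c, Nrn1 and Lhx5 were 871, 1067 and 950 bp wide and had neither a wild-type peak nor RAD21. Those by Vmn2r102 and Gulp1 were 162 and 343 bp wide, and wild type had them at percentiles 63.9 and 85.0.

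The other 5 were 218 to 368 bp wide, and all were called in wild type. Gm40847 (percentile 90.4) had no RAD21. The peaks by Asgr1, a liver glycoprotein receptor subunit (88.5), Adamts9, an extracellular protease (85.8), Dcakd (85.4) and Med11, a Mediator subunit (85.1), all had RAD21 in InsCBS5-10. At Asgr1 that RAD21 peak was at percentile 94.6 of its list. Asgr1, Dcakd and Med11 lie on chromosome 11, where strong list-only peaks were more frequent in both lists.

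Among InsCBS5-10-only peaks near genes, the highest was by Il31ra, a cytokine receptor (chr13:112578187-112578353, fold enrichment 12.9, percentile 99.2). It had RAD21 at percentile 99.7 and no wild-type peak, and it was the only strong InsCBS5-10-only peak of 50 missing from wild type. The next was by Isl1, a transcription factor of motor neurons and cardiac progenitors (chr13:116311981-116312477, 7.93, 82.6), followed by Krcc1 (80.8), Zcchc2 (80.4) and Grin2b, an NMDA receptor subunit (78.5). The peaks by Tox3, a chromatin-binding HMG-box protein (78.1), E130309D02Rik (76.7), Flrt3, a cell adhesion protein (76.0), Cyp2c65, a cytochrome P450 (75.4), and Cntfr, the ciliary neurotrophic factor receptor (75.4), completed the 10. Of these 10, wild type had 9 and RAD21 overlapped 6, while of the 10 by DelCBS7-10 wild type had 7 and RAD21 overlapped 4.

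The 25 strong DelCBS7-10-only peaks without wild-type CTCF were wider than the 119 with it. Their median width was 662 bp and 14 of them reached 500 bp, against a median of 249 bp and 4 of 119 among those with a wild-type peak. Shared top-30% peaks of DelCBS7-10 had a median of 414 bp and 31.6% (30.7 to 32.5) reached 500 bp, as did 20 of the 38 of them without a wild-type peak. Only 1 of the 25 overlapped RAD21, which came from InsCBS5-10, the line with no CTCF call at these sites. Of these 14, named after their values were seen, peaks lay by Hoxc9 (1478 bp, 71.4), Flt1, a VEGF receptor (1219 bp, 79.1), Hoxd13 (1120 bp, 79.9), Nrn1, and Vax2 of the eye and forebrain (1055 bp, percentile 96.0, 8102 bp away). Lmx1b of the dorsal limb (979 bp, 79.2, 8853 bp away), Lhx5, Cdkn2c, Minar1 (733 bp, 79.99, 5513 bp away) and Hoxc13 (704 bp, 81.6, 10290 bp away) followed. Onecut3 (699 bp, 83.9, 8803 bp away), a second site by Nrn1 (662 bp, 75.1) and Osr1 of the kidney and heart (652 bp, 70.02) were the last. Among strong InsCBS5-10-only peaks, 2 of 50 reached 500 bp, and both were called in wild type.

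**Figure D3:**
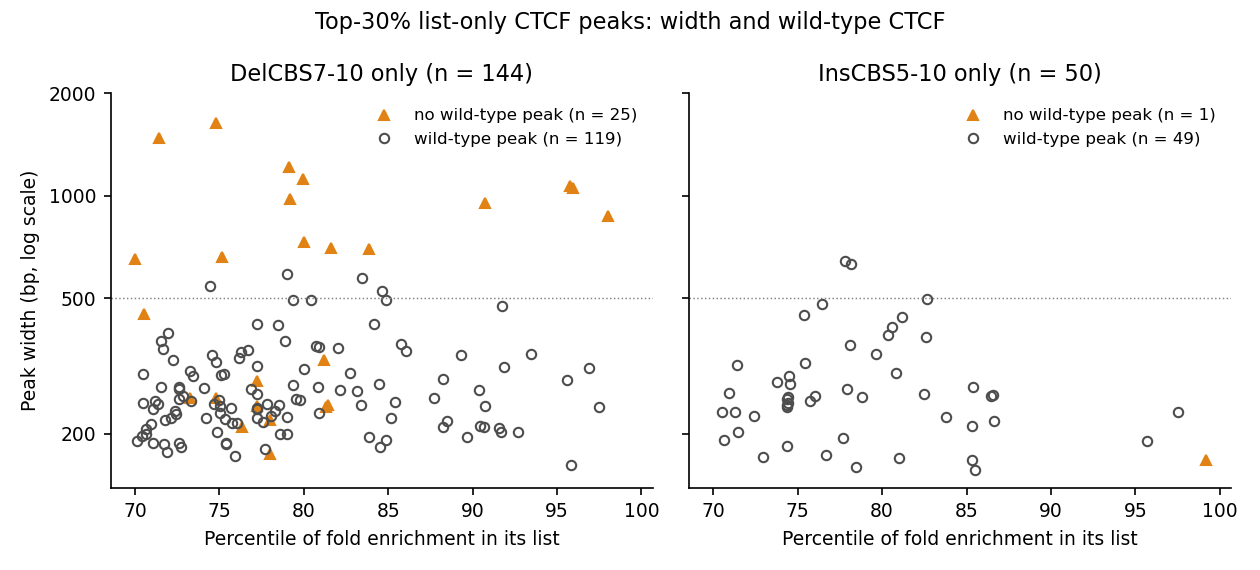
Width in bp (log scale) of each top-30% list-only peak against its percentile of fold enrichment within its list, for the 144 DelCBS7-10-only peaks (left) and the 50 InsCBS5-10-only peaks (right); filled triangles have no wild-type CTCF peak, open circles have one, and the dotted line is at 500 bp. Triangles make up 14 of the points at or above the line on the left and none on the right.

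At the 27842 DelCBS7-10 peaks that InsCBS5-10 shared, ranks differed in either direction. The median difference in percentile, DelCBS7-10 minus InsCBS5-10, was 0.58 points (quartiles −11.6 and 14.1), and the median absolute difference was 12.8 points. As a description over these 27842 peaks, whose sequence is common to both libraries, Spearman's rho of the percentiles was 0.684. In all, 3479 shared peaks (12.5%) stood over 25 points higher in DelCBS7-10 and 2790 (10.0%) stood over 25 points lower. Differences over 50 points were found at 372 and 290 peaks.

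**Figure D4:**
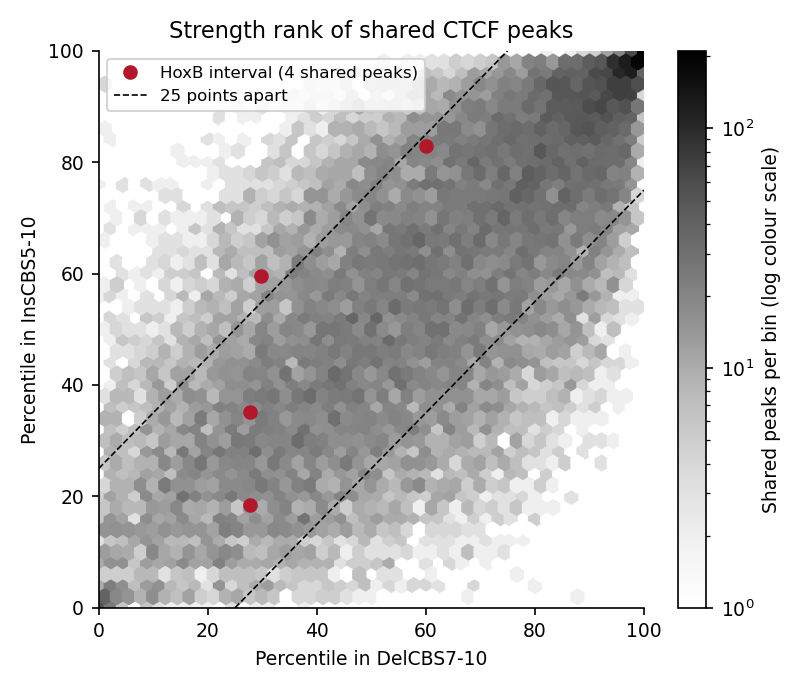
Percentile of fold enrichment in DelCBS7-10 (x axis) and in InsCBS5-10 (y axis) of the shared CTCF peaks, as counts per hexagonal bin on a log colour scale; dashed lines mark a difference of 25 points and red circles the 4 shared peaks of the HoxB interval. Most peaks lie between the dashed lines, and 1 of the 4 HoxB peaks lies outside them, at 29.7 in DelCBS7-10 and 59.6 in InsCBS5-10.

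On chromosome 11, rank differences could also be read within a library. The deposited lists hold 2 versions of chromosome 11 with the same sequence before HoxB, and the labels do not say how reads of this common sequence were assigned. The peaks of both versions were not copies, since only 2 intervals in each mutant had the same ends. Before HoxB, the median absolute difference in rank between both versions was 16.3 points in DelCBS7-10 and 14.8 points in InsCBS5-10, while between the mutants it was 16.7 points. Differences over 25 points made up 29.7% (26.9 to 32.6) and 27.5% (24.8 to 30.5) of shared peaks within these libraries, and 33.4% (30.4 to 36.5) between them. This covers chromosome 11 before HoxB alone, and versions of 1 library are not replicates, so it gives no error for the differences on other chromosomes.

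**Figure D5:**
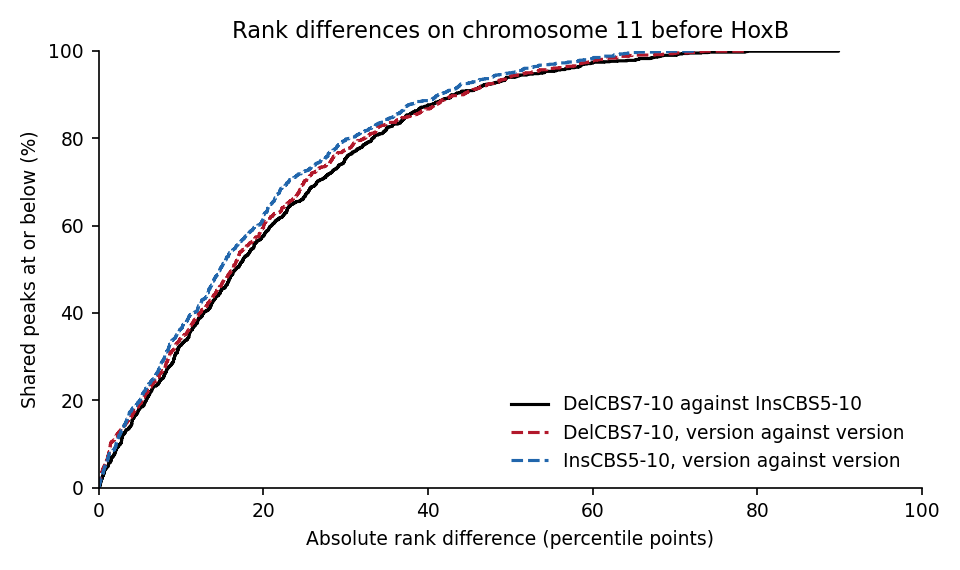
Cumulative percentage of shared peaks (y axis) by absolute difference in percentile (x axis) on chromosome 11 before HoxB, for DelCBS7-10 against InsCBS5-10 (black) and for both deposited versions of chromosome 11 within the DelCBS7-10 list (red, dashed) and within the InsCBS5-10 list (blue, dashed). The curves lie close together, with medians of 16.7, 16.3 and 14.8 points.

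Strong list-only peaks were more frequent between the mutants than between versions, though the intervals overlapped. On the same stretch, 15 of 369 top-30% DelCBS7-10 peaks (4.07%, 2.29 to 6.62) had no InsCBS5-10 peak, whereas 4 of 369 (1.08%, 0.296 to 2.75) had none on the other version within DelCBS7-10. For InsCBS5-10, 13 of 354 (3.67%, 1.97 to 6.20) had no DelCBS7-10 peak and 2 of 354 (0.565%, 0.0685 to 2.03) had none on the other version. Chromosome 11 also had more strong list-only peaks than other autosomes. The share there was 3.44% (2.02 to 5.45) against 1.24% (1.03 to 1.47) elsewhere in DelCBS7-10, and 2.34% (1.171 to 4.14) against 0.405% (0.288 to 0.553) elsewhere in InsCBS5-10. The edited genome holds 2 versions of chromosome 11, and the part of this in the higher share was not tested.

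Among shared peaks within 5 kb of a gene, the 10 largest rank differences in each direction were taken. Higher in DelCBS7-10 were Ptpn18, a tyrosine phosphatase (percentile 89.4 in DelCBS7-10 and 7.53 in InsCBS5-10), Sox21, a neural SoxB factor (81.4 in DelCBS7-10 and 6.20 in InsCBS5-10), and Gm8094 (79.03 in DelCBS7-10 and 4.07 in InsCBS5-10). Ccdc122 (87.3 in DelCBS7-10 and 12.4 in InsCBS5-10), Slc27a6, a fatty acid transporter (79.9 in DelCBS7-10 and 5.25 in InsCBS5-10), and Sgpl1, the sphingosine phosphate lyase (97.0 in DelCBS7-10 and 23.3 in InsCBS5-10), followed. Further ones were Pik3r5 (89.8 in DelCBS7-10 and 18.5 in InsCBS5-10), Tnfrsf11a, the RANK receptor (82.1 in DelCBS7-10 and 12.4 in InsCBS5-10), Nat8l (72.0 in DelCBS7-10 and 4.31 in InsCBS5-10) and Pax7, a factor of the dorsal neural tube and muscle (84.6 in DelCBS7-10 and 17.1 in InsCBS5-10). None of the 10 overlapped RAD21 in InsCBS5-10, and 7 had a wild-type peak. Of all shared DelCBS7-10 peaks, 55.3% overlapped this RAD21. The 10 were picked for a low rank in InsCBS5-10, the line RAD21 came from, so the absence of RAD21 is not an even-handed readout. The 3 without one, by Sox21, Sgpl1 and Pax7, were 852, 943 and 1908 bp wide in DelCBS7-10.

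Lower in DelCBS7-10 were Hnrnpul1, an RNA-binding protein (percentile 1.88 in DelCBS7-10 and 93.6 in InsCBS5-10), and Zfp949 (3.32 in DelCBS7-10 and 91.4 in InsCBS5-10). Cisd1, an iron-sulfur protein of mitochondria (1.84 in DelCBS7-10 and 89.1 in InsCBS5-10), Gm6370 (2.82 in DelCBS7-10 and 88.3 in InsCBS5-10) and Il13, a cytokine (4.88 in DelCBS7-10 and 88.5 in InsCBS5-10), came next. Cox19, a copper protein of respiratory assembly (1.84 in DelCBS7-10 and 85.02 in InsCBS5-10), Glyctk, glycerate kinase (0.732 in DelCBS7-10 and 83.0 in InsCBS5-10), Mthfsd (2.02 in DelCBS7-10 and 77.9 in InsCBS5-10) and Cyp46a1, the cholesterol 24-hydroxylase of brain (0.616 in DelCBS7-10 and 76.3 in InsCBS5-10), completed those named. Of all 10, the peak by Il13 alone was called in wild type, and 2 overlapped RAD21. In InsCBS5-10 they were 396 to 1405 bp wide, with a median of 750.5 bp, and in DelCBS7-10 they were 163 to 492 bp wide. Some pairs met only near an edge. By Cisd1 the DelCBS7-10 peak (71327363-71327613) and the InsCBS5-10 peak (71326834-71327363) shared 1 bp. By Glyctk they lay at 106156959-106157150 in DelCBS7-10 and 106156031-106157019 in InsCBS5-10. Such a pair need not be 1 binding site.

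Wide peaks without wild-type CTCF were found in either direction. Of the 372 shared peaks over 50 points higher in DelCBS7-10, 28 (7.53%, 5.06 to 10.7) had no wild-type peak, and 15 of these 28 were at least 500 bp wide in DelCBS7-10. Of the 290 over 50 points lower, 61 (21.0%, 16.5 to 26.2) had none, and 59 of these 61 were at least 500 bp wide in InsCBS5-10. Among those with a wild-type peak, 46 of 344 higher and 31 of 229 lower peaks reached this width. Among shared peaks within 25 points the share without a wild-type peak was 3.02% (2.79 to 3.25). The genes nearest to these 15 were Sox21, Sgpl1, Pax7, Mrps28, Zic4, Tfap2b, Tbx15, Otx2, Nr2f2, Dmrt3, Skida1, Zfp618, Trhde, Myo15 and Foxf1, at distances of up to 58287 bp. Their percentiles lay between 61.4 and 97.0 in DelCBS7-10 and between 3.88 and 39.5 in InsCBS5-10. Of the 15, 3 overlapped RAD21, which came from InsCBS5-10, the line in which they ranked low. The second kind included peaks whose nearest gene was Pmel, a pigment cell protein 11538 bp away (percentile 1.61 in DelCBS7-10 and 93.7 in InsCBS5-10), or Cnst, 6777 bp away (1.34 in DelCBS7-10 and 87.2 in InsCBS5-10). These names were chosen after their values were seen. As an overlap of 1 bp counts as shared, a pair can join a narrow peak to the edge of a wide one.

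Cohesin and distance to a start site differed between the directions. RAD21 of InsCBS5-10 overlapped 43.1% (41.4 to 44.8) of the shared peaks over 25 points higher in DelCBS7-10 and 58.7% (56.8 to 60.5) of those over 25 points lower, against 56.9% (56.2 to 57.6) of the rest. The median CTCF percentiles in InsCBS5-10 were 33.3, 71.7 and 61.4 in this order. RAD21 came from that same line, so it is not an even-handed readout of the direction. Within 500 bp of a start site, 16.7% of 1321 shared peaks were over 25 points higher in DelCBS7-10 and 8.403% over 25 points lower. Farther away the shares were 12.2% and 10.1% of 25665 peaks. Promoter windows under peaks over 25 points higher in DelCBS7-10 had a median GC content of 64.3% and held the motif in 42.3% of 142 cases. Those under the InsCBS5-10 summits of peaks over 25 points lower had 56.0% and 48.4% of 62, and the rest had 59.0% and 47.5% of 646. In these promoter windows the median GC content was thus highest in the set higher in DelCBS7-10 and lowest in the set lower there. The medians are given without a spread, and only the set lower in DelCBS7-10 was placed by InsCBS5-10 summits. The part of base composition in the rank difference was not tested.

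Genes of the body axis and of the CTCF machinery were then read by whether a peak lay within 5 kb of an end. Over all 20665 protein-coding genes, 6.25% had a DelCBS7-10 peak there and no InsCBS5-10 peak, and 3.44% had the reverse. Of 88 measured members of 7 lists, 57 had a peak in both mutants, 3 in DelCBS7-10 alone (3.41%), 4 in InsCBS5-10 alone (4.55%) and 24 in neither. Peaks in both were thus found at 64.8% of members and 39.6% of all genes, and in neither at 27.3% of members and 50.7% of all genes. By list, the share with peaks in both ran from 33.3% (CTCF, cohesin and regulators) to 88.9% (HoxC). Neighbouring genes can be called by the same peak, as Hoxc4, Hoxc5 and Hoxc6 were in InsCBS5-10 (percentile 57.9). The members are therefore not independent, and the shares count some peaks more than once. With 3 and 4 genes, the shares with a peak in 1 mutant alone rest on few members. Another 6 members lie on the X chromosome and were not measured.

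The HoxA list had 7 of 12 members with a peak in both mutants. Evx1, a homeobox gene beside the cluster, had 2 peaks in DelCBS7-10 alone (best percentile 14.7), and Hoxa13, the most posterior HoxA gene, had 1 in InsCBS5-10 alone (42.7), where it also had RAD21. The HoxC list had 8 of 9 in both and none in 1 mutant alone. Within it, the highest peak by Hoxc8 stood at percentile 1.47 in DelCBS7-10 and 41.4 in InsCBS5-10. That by Hoxc4 stood at 11.5 in DelCBS7-10 and 57.9 in InsCBS5-10, and that by Hoxc9 at 71.4 in DelCBS7-10 and 41.4 in InsCBS5-10. The highest peaks of both lists need not be 1 site, and the DelCBS7-10 peak by Hoxc9 had no InsCBS5-10 counterpart. The HoxD list had 7 of 10 in both, and Hoxd12 had a peak in DelCBS7-10 alone (percentile 65.0) with wild-type CTCF and RAD21 nearby.

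In the posterior growth zone, 14 of 19 members had a peak in both, and Lin28a, an RNA-binding protein of early growth (percentile 10.3), and Hes7, an oscillating repressor of the somite clock (69.9), had one in InsCBS5-10 alone. Evx1 belongs to this list as well. Of 16 somite and paraxial mesoderm genes, 8 had a peak in both, and Uncx, a homeobox gene of the posterior somite, had one in DelCBS7-10 alone (34.3). The 11 neural tube genes showed no difference in call, with 9 in both. The call is made per gene and does not compare sites. Lhx5 and Isl1 are in this list, each with a top-30% list-only peak named above (90.7 in DelCBS7-10 and 82.6 in InsCBS5-10). Among 12 genes of CTCF, cohesin and its regulators, 4 had a peak in both, and Pds5b, a regulator of cohesin release, had one in InsCBS5-10 alone (27.5). All 7 differing genes were below the top 30% in the list that had the peak. Genes called in both mutants could still have a top-30% list-only peak, as Hoxc9 (71.4) and Hoxd13 (79.9) had in DelCBS7-10.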

How the data were processed

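CTCF peak lists of DelCBS7-10 and InsCBS5-10 gastruloids were compared, with wild-type CTCF and InsCBS5-10 RAD21 as further readouts (1 library each). The submitters' processing notes name the tools cutadapt 4.1 and MACS2 2.2.7.1, with mm10 as build. Peaks were called per library on an edited mm10 with 2 versions of chromosome 11, per the peak names in the files. No source used here gives the aligner, filters, control or options. The authors deposited, for each summit, a fold enrichment (a ratio of the signal to the background of the same library), a −log10 p, a −log10 q, a whole-number score of about 10 times the −log10 q, and the summit's offset. The 1 list without a sample of its own was not used.

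Rows with the same interval were reduced to the summit of highest −log10 q, and chromosomes 1 to 19 were kept. Fold enrichment was turned into a percentile within each list (100 is strongest). Peaks were shared where they overlapped by 1 bp, and the partner was the peak of longest overlap. Read numbers are unknown, so depth could not be weighed. Intervals on shares are Clopper-Pearson (exact, 95%) and cover nothing but counting error. With 1 library a side no test was made. Genes came from a RefSeq table of GRCm38.p6, the assembly mm10 names. Beyond Hoxb13, positions on chromosome 11 are those of the edited sequence, and genes there were placed by an offset of 64.5 kb. This offset put 14 pairs of CTCF summit and promoter motif within 30 bp of each other, against at most 8 at offsets over 1 kb away. The same scan before the edit returned an offset of 0. Promoter windows of chromosome 18 were not used here. Peaks were named by the nearest end of a protein-coding gene within 5 kb, taking the 10 highest percentiles per list and the 10 largest rank differences in each direction. Of the peaks these rules chose, and of those described after their values were seen, some are not reported here by name. Every peak of the HoxB interval was named, and every member of the gene lists whose call differed. Other names were chosen after their values were seen. Members, lists and comparisons were chosen with earlier results of these data known. The code was tested on simulated data, and alternatives are given in the closing section. Python 3.11.15, numpy 2.4.6, pandas 2.3.3, scipy 1.17.1 and matplotlib 3.10.9 were used.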

Additional observations from a re-analysis of the deposited data

How the results depend on the processing

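Of 64 values recomputed for 15 results, 50 stayed within 1.5 times the reported count or within the interval of the reported value, and 14 moved. With an overlap of 50% of the shorter peak, 76.9% of DelCBS7-10 and 81.7% of InsCBS5-10 peaks were shared, against 77.8% and 82.7% at 1 bp. Restricted to peaks of −log10 q at or above 5, these shares were 84.0% and 87.5%, and the median absolute rank difference was 15.1 points. Then 89 rather than 50 top-30% peaks were found in InsCBS5-10 alone. The HoxB peaks found in 1 list only were 3 of 4 in DelCBS7-10 and 7 of 8 in InsCBS5-10, against 6 of 10 in each. In InsCBS5-10 these include peaks whose DelCBS7-10 partner was removed by the cutoff. Ranked by −log10 q, 77 DelCBS7-10 and 22 InsCBS5-10 peaks of the top 30% were found in 1 list only, and the median absolute rank difference was 11.9 points. With ranks among shared peaks it was 13.7 points. In the top 10%, 18 and 3 peaks were found in 1 list only, by construction fewer. With wild-type peaks at a −log10 q of 5 or more, 75% of strong DelCBS7-10-only peaks had one. The cause of the other movements was not tested. No paired analysis was possible because each group has 1 library, and none could be left out. No HoxB list-only peak reached the top 30% under any alternative run for it.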

Other observations

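Shares of strong list-only peaks by chromosome, other than 11, rest on small counts, and the intervals of the highest and lowest overlapped. In DelCBS7-10 the share of top-30% peaks without an InsCBS5-10 peak was highest on chromosomes 14 (12 of 547, 2.19%, 95% interval 1.14 to 3.801) and 12 (11 of 504, 2.18%, 1.09 to 3.87), and lowest on chromosomes 18 (1 of 360, 0.278%, 0.00703 to 1.54) and 19 (1 of 374, 0.267%, 0.00677 to 1.48). In InsCBS5-10 it was highest on chromosome 13 (5 of 420, 1.19%, 0.388 to 2.76). The median rank difference, DelCBS7-10 minus InsCBS5-10, lay between −0.38 points on chromosome 15 and 1.85 points on chromosome 12.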
